A study of Mus musculus with 4 samples.

Results

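Amino acid transporters are the solute carriers that move amino acids and close relatives across the plasma membrane or the lysosomal membrane. The genes described here were picked by a rule on the symbol. It takes every gene named as a numbered member of the families Slc1a, Slc3a, Slc6a, Slc7a, Slc36a, Slc38a and Slc43a. The set was proposed with earlier results of these data known. The rule found 59 of the 24421 genes counted, and all 59 had at least 10 counts summed over the 4 libraries. Of these, 55 passed the filter on low counts and were tested. Slc1a6, Slc38a3, Slc3a1 and Slc7a12 did not pass. Since the rule goes by name, it also takes in carriers of other substrates, such as Slc6a2, Slc6a3 and Slc6a4 for monoamines, Slc6a8 for creatine and Slc43a3 for purine bases.

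The samples were regulatory T cells, the Foxp3-expressing CD4 T cells that restrain immune responses. CD45.1+ hosts had received cells of the tumor line EG7.1.15 in the peritoneal cavity and shared their circulation with a CD45.1- partner that carried no tumor. The sequenced cells came from the partner but were taken out of the host's omental tumor or spleen at day 14, and the labels give their strain as B6 Foxp3-DTR/GFP, which carries a diphtheria toxin receptor and a green fluorescent reporter at Foxp3. They were sorted as live CD45.1- CD45.2+ B220- CD4+ CD25+ cells positive for the Foxp3 reporter. Mouse 2 and mouse 3 each gave 1 library from omental tumor and 1 from spleen, so each group held 2 libraries and both groups came from the same animals. Both groups share the tumor, the joining surgery and the reporter allele, so the spleen samples are not cells of a healthy animal. The sources used here do not state the animals' ages.

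T cells that become active or divide take in more amino acids than resting cells, and several of these carriers are known as activation genes. The CD98 heavy chain, encoded by Slc3a2, pairs with 1 of several light chains of the Slc7 family, and the pair exchanges 1 amino acid for another. Carriers of the Slc38 and Slc1 families use the sodium gradient to bring in small neutral amino acids, glutamine and glutamate, while Slc36 and some Slc38 members sit on lysosomes and pass amino acids to or sense them for the kinase mTOR.

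Genes received 6660230 and 3764508 counts in omental tumor and 9989005 and 13598631 counts in spleen, in the order mouse 2, mouse 3 that is kept throughout. A count of 3, taken as the lowest level that can be told from 0, corresponded to 0.394 and 0.760 CPM (the usual unit of counts scaled to library size, here with TMM factors) in omental tumor and 0.294 and 0.275 CPM in spleen. The sort markers were present in every library, with Foxp3 at 81.4, 84.3, 113 and 144 CPM and Il2ra, which encodes CD25, at 690, 320, 700 and 886 CPM. Both were lower in both omental libraries (log2 fold changes -0.64 and -0.65), although Il2ra in mouse 2 was nearly level with spleen. The values of Cd4 were 376, 114, 568 and 1008 CPM, those of Cd3e 450, 306, 803 and 1279 CPM and those of Ptprc 2077, 925, 2596 and 4034 CPM, all lower in both omental libraries and lowest in that of mouse 3. Ctla4 was higher in both, at 1239, 1290, 391 and 764 CPM. None of the 7 genes listed for the sorted population, which also include Ikzf2, was called. Markers of other cells were present too. The 10 measured neutrophil markers summed to 156 and 1481 CPM in omental tumor against 102 and 72.0 CPM in spleen, and the 13 macrophage or monocyte markers to 530 and 986 against 246 and 478 CPM, although 7 of those 13 had negative log2 fold changes. The 10 fibroblast or mesothelial markers summed to 183 and 20.0 against 15.8 and 8.33 CPM. The 10 handling genes, immediate early and heat shock genes that respond to tissue processing, summed to 1705 and 2051 against 1000 and 220 CPM. Dendritic, B or plasma, CD8 T or NK, immature T, mast, adipocyte, endothelial and erythroid marker lists each held at most 1 called gene. The B or plasma cell markers nevertheless summed to 598 and 38.5 CPM against 210 and 244 CPM, with Jchain at 465 and 5.32 CPM against 150 and 187 CPM, in cells sorted as B220-. In such bulk libraries, fewer cells of a type and less RNA per cell cannot be told apart.

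Across all 16322 genes tested, 215 (1.32%) had an adjusted p under 0.05 by edgeR's quasi-likelihood test, 178 of them (1.09%) higher and 37 (0.227%) lower in omental tumor. With upper-quartile scaling that split was 188 higher and 13 lower, with DESeq2 210 and 153, and without the mouse 2 omental library 323 and 283. Of the 55 transporters tested, 2 passed, or 3.64%, both higher: Slc7a11, the light chain of the cystine and glutamate exchanger, and Slc6a13, a carrier of GABA and taurine. At an unadjusted p under 0.05, 4 transporters passed (7.27%), against 9.01% of all genes tested. The other 2 were Slc6a2 and Slc7a5. Log2 fold changes, given as omental tumor over spleen, were positive for 43 and negative for 12 of the transporters that passed the filter, with a median of 0.79 against 0.11 over all genes tested. With no filter, 41 of 59 were positive and the median was 0.66. Without the omental library of mouse 2 the median turned to -0.14, with 22 of 51 positive, and over all genes it was then -0.32.

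Both omental libraries lay above both spleen libraries for 17 of 55 transporters, or 30.9%, against 16.4% of all genes tested. Both lay below for 6, or 10.9%, against 25.4%. The share with higher values depended on abundance. Of the 20 transporters with a mean of at least 10 CPM, 12 had positive log2 fold changes, with a median of 0.10, while 33.7% of all genes at that level were positive, with a median of -0.42. Of the 35 tested below 10 CPM, 31 (88.6%) were positive, as were 78.5% of all genes at that level. The plot of all log2 fold changes shows the spread within each role.

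**Figure D1:**
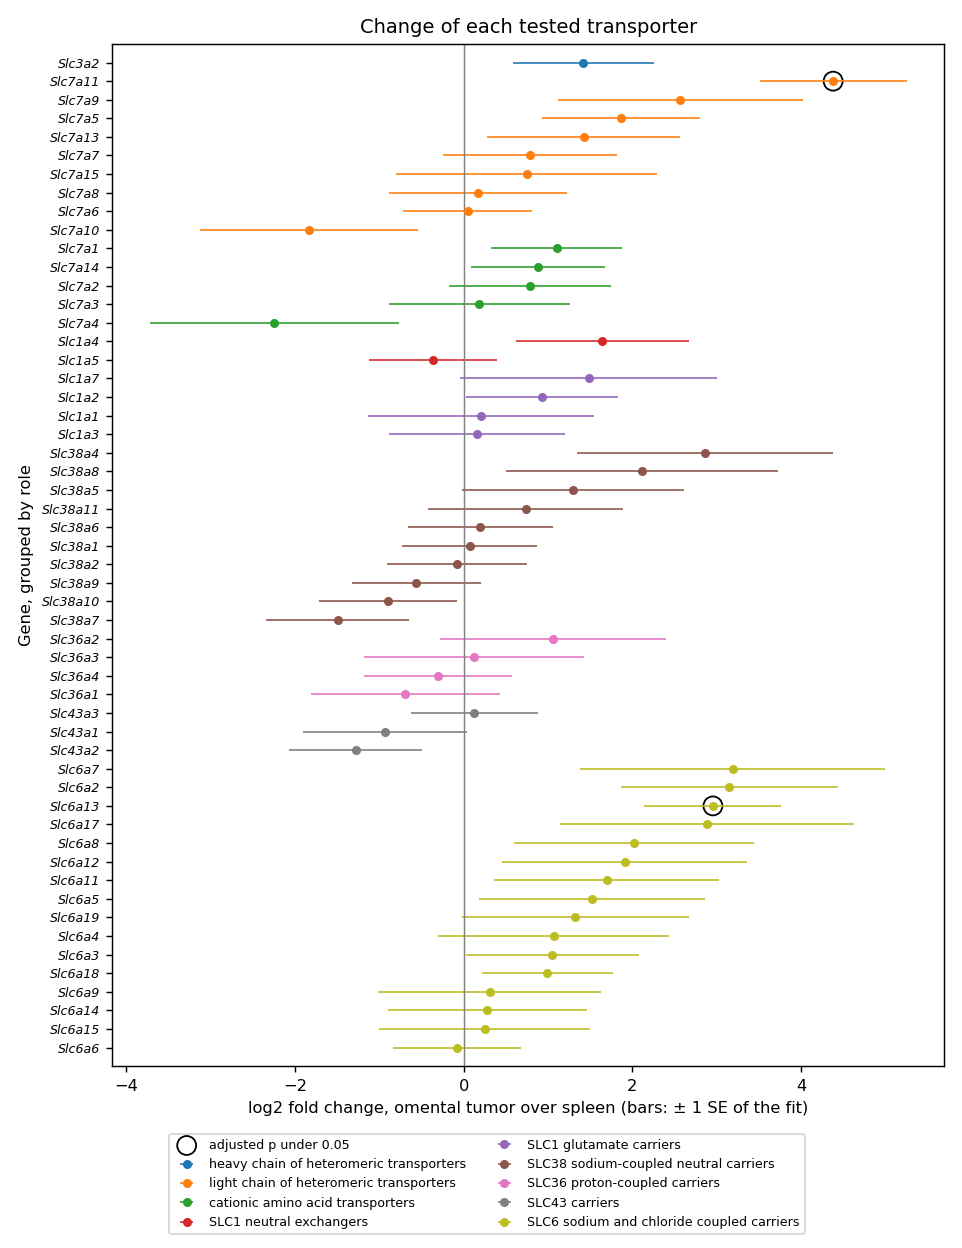
Log2 fold change of 54 of the 55 tested transporters, omental tumor over spleen (x axis), grouped by role (colours), with bars of 1 SE from the fit. The 2 circled genes, Slc7a11 at 4.38 and Slc6a13 at 2.96, had an adjusted p under 0.05, and 42 of the 54 points lie right of 0.

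The transporters' summed level was 2168 and 1670 CPM in omental tumor and 1616 and 1544 CPM in spleen. A few genes made up most of these counts. Slc38a2, Slc3a2, Slc38a10, Slc38a1, Slc7a14, Slc43a2, Slc7a1 and Slc7a6 together took 73.5% and 63.0% of the omental sums and 70.3% and 80.4% of the spleen sums. Per kilobase of exon, which is the scale on which genes can be compared, Slc3a2 was the most abundant at a mean of 78.4 CPM per kb over the 4 libraries. It was followed by Slc38a2 at 60.7, Slc38a10 at 37.3, Slc6a13 at 23.2, Slc1a5 at 21.3, Slc7a6 at 19.5, Slc43a3 at 15.5 and Slc38a1 at 15.2 CPM per kb. The library values of each pair of neighbours in this order overlapped. The order is that of the mean over both tissues: Slc6a13 was at 37.2 and 45.0 CPM per kb in omental tumor but at 4.56 and 6.02 CPM per kb in spleen, below the other genes named. The plot of the more abundant transporters shows how far the 4 libraries of each gene spread.

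**Figure D2:**
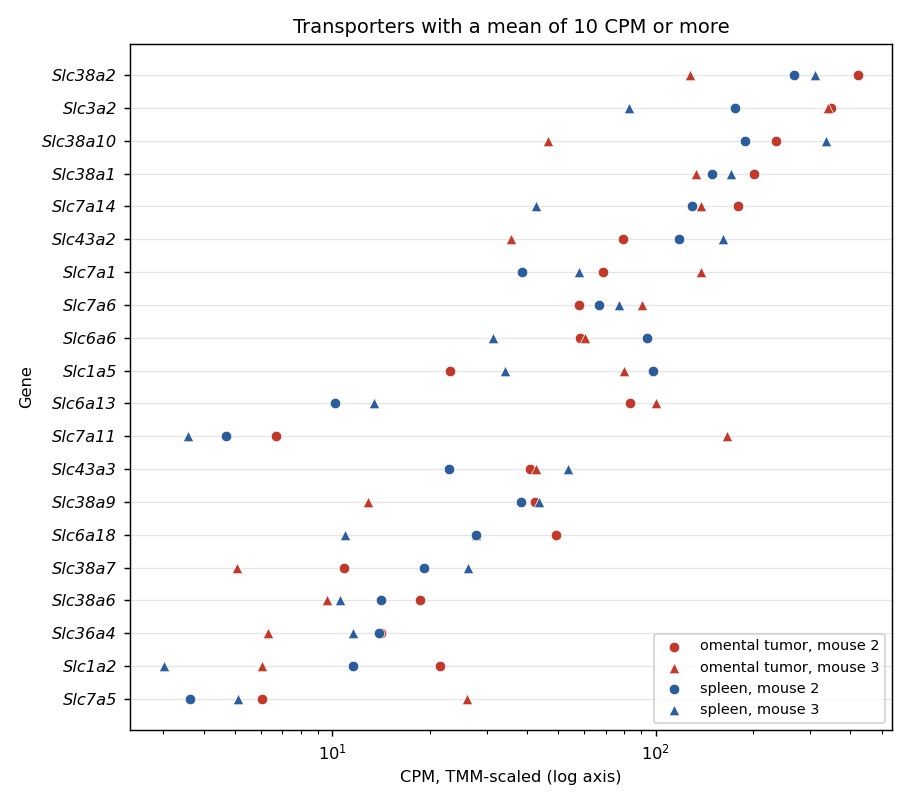
TMM-scaled CPM (log axis) of the 20 transporters with a mean of at least 10 CPM, 1 symbol per library (red, omental tumor; blue, spleen; circles, mouse 2; triangles, mouse 3). Both red symbols lie right of both blue symbols for 7 genes, among them Slc6a13 and Slc3a2, and left of both for 2, Slc43a2 and Slc38a7. Of all 9068 genes tested at that level, both omental libraries lay above both spleen libraries for 844 and below both for 3541.

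The heavy chain Slc3a2 (chr19:8706882-8723369, minus strand, GRCm38) carries its light chains to the cell surface. It stood at 349 and 341 CPM in omental tumor and at 175 and 82.7 CPM in spleen. The omental libraries were close to each other and above both spleen libraries, which differed from each other by more than the omental ones did. The group means were 345 ± 5.30 and 129 ± 65.6 CPM (SD, n = 2 each), which gave a log2 fold change of 1.42 with an SE of 0.84. The adjusted p by edgeR's quasi-likelihood test was 0.638, so the difference did not pass. Slc3a1, the heavy chain of the cystine and dibasic amino acid exchanger of kidney and gut, lay at 1.76 CPM or less in every library. Slc3a1 overlaps the protein-coding gene Prepl on the opposite strand.

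Among the light chains, Slc7a11 (chr3:49892526-50443614, minus strand, GRCm38) imports cystine in exchange for glutamate, and its cystine feeds the synthesis of glutathione. Its level was 6.69 CPM (51 counts) and 167 CPM (658 counts) in omental tumor, and 4.70 CPM (48 counts) and 3.57 CPM (39 counts) in spleen. All of the large difference lay in the omental library of mouse 3. The omental library of mouse 2 was above both spleen libraries by less than the distance between the 2 omental ones. The means were 86.6 ± 113 and 4.13 ± 0.798 CPM (SD, n = 2 each), with a log2 fold change of 4.38, an SE of 0.87 and an adjusted p of 0.000142. Within mouse 2 the log2 ratio was 0.49 and within mouse 3 it was 5.45. With the mouse as a block the log2 fold change was 3.05 and the adjusted p 0.128, and without the omental library of mouse 3 they were 0.61 and 0.938. The call was also lost without the spleen library of mouse 2 (adjusted p = 0.291) or of mouse 3 (adjusted p = 0.126), and held without the omental library of mouse 2 (log2 fold change 5.32, adjusted p = 2.15e-07). Scaling by library totals (adjusted p = 0.202), a minimum count of 50 (0.236) and limma-voom (0.0802) also ended it.

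The same omental library of mouse 3 held the most neutrophil marker RNA, with S100a8 at 412 CPM and S100a9 at 475 CPM against 0.131 and 1.58 CPM in the other omental library. In spleen they stood at 6.26 and 9.52 CPM for S100a8 and at 9.10 and 7.50 CPM for S100a9. Of the 8 neutrophil markers tested, 4 were called higher in omental tumor, against 1.09% of all genes tested. None of the 10 measured was at 0 in any library. Ngp went the other way, at 1.97 and 1.52 CPM against 0.979 and 8.69 CPM (log2 fold change -1.46, not called). Camp was also highest in the spleen library of mouse 3, at 1.19 CPM, and Mmp8 was at 13.4 and 11.9 CPM in omental tumor. Of the 13 macrophage or monocyte markers, 3 (Cd14, Fcgr3 and Lyz2) were called higher, and none was at 0 in any library. The list went both ways: 7 of its 13 log2 fold changes were negative (median -0.34), with Csf1r at -1.75 and Mrc1 at -1.40, neither called. Lyz2, which neutrophils and macrophages both express, stood at 250 and 297 CPM against 6.85 and 61.8 CPM. The part of these cells in the Slc7a11 value was not tested. Slc7a11 also overlaps an antisense transcript and processed pseudogenes in GENCODE M21, and the libraries do not mark strand.

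The promoter of Slc7a11 is shown because the gene is a textbook target of ATF4, the transcription factor of the amino acid response. The sequence is the 250 bases upstream of the RefSeq start (chr3:50443614-50443863, minus strand, GRCm38.p6), and that of Slc6a13, the other called transporter, is the 250 bases upstream of the first of its 3 listed starts (chr6:121300038-121300287, plus strand). Capitals mark each match, on either strand, to TTGCATCA, a form of the composite element bound by C/EBP and ATF proteins.
Slc7a11: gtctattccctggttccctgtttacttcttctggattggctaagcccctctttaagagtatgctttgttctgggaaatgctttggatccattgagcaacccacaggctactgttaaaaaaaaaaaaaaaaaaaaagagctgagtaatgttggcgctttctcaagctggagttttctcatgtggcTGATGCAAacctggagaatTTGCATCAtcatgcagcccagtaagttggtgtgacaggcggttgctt
Slc6a13: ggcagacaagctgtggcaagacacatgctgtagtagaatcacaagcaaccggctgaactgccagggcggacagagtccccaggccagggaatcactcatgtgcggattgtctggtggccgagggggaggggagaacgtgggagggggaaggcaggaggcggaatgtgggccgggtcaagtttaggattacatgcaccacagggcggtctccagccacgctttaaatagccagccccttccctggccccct
Slc7a11 held the element in 2 places, 66 bases before the start on the opposite strand and 47 bases before it on the gene's own strand. Slc6a13 held none in its 3 windows. In windows of 300 bases, 250 before and 50 after the start, 294 of 32851 windows of all genes (0.895%) held the element, and 2 held it more than once. Windows were listed for 41 of the 59 transporters, and 4 of their 62 windows (6.45%) held it, in Slc7a11, Slc7a7 and Slc1a4. The Slc7a7 windows overlap and hold the same site. Counted by gene, 3 of 41 transporters and 279 of 27025 genes in all held the element. The element was chosen after the value of Slc7a11 was known, and a match is a description of letters, not of binding.

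Slc7a5, the large neutral amino acid carrier LAT1 that brings leucine into activated T cells, stood at 6.04 and 26.1 CPM in omental tumor and 3.62 and 5.12 CPM in spleen. Both omental libraries were above both spleen libraries, and that of mouse 3 was the highest. The log2 fold change was 1.86 and the adjusted p 0.546 (unadjusted p = 0.0465), so it was not called. Slc7a5 overlaps another annotated gene, Gm20388. Slc7a6, the light chain y+LAT2 that exchanges arginine for neutral amino acids and sodium, was the most abundant light chain per kilobase, at 57.8 and 90.9 CPM against 66.6 and 77.0 CPM. Its libraries interleaved, with a log2 fold change of 0.05.

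The remaining light chains were low. Slc7a7, another exchanger of the y+L type, lay between 3.62 and 10.8 CPM, and Slc7a8, the neutral carrier LAT2, between 1.27 and 10.2 CPM, both with overlapping groups. Slc7a10, a carrier of small neutral amino acids including serine, was lower in both omental libraries, at 1.05 and 1.52 CPM against 5.97 and 3.20 CPM, and was not called (adjusted p = 0.724). In GENCODE M21 Slc7a7 and Slc7a10 overlap the protein-coding genes Oxa1l and Lrp3 on the opposite strand. Slc7a9, which pairs with Slc3a1, stood at 4.86 and 1.52 CPM against 0.979 and 0.0915 CPM and was not called (adjusted p = 0.617). Slc7a13, also a partner of Slc3a1, had a log2 fold change of 1.42 and Slc7a15 of 0.75, both with overlapping groups and no call.

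The 6 light chains known to pair with the CD98 heavy chain, Slc7a5, Slc7a6, Slc7a7, Slc7a8, Slc7a10 and Slc7a11, summed to 92.5 and 291 CPM in omental tumor and 89.3 and 99.8 CPM in spleen. Without Slc7a11 the sums were 85.8, 124, 84.6 and 96.3 CPM. The light chains other than Slc7a11 were closer in sum across the 4 libraries than Slc3a2 itself. Slc7a11 took 7.23% of the 705 counts of the 6 genes in the omental library of mouse 2 (95% Wilson interval 5.54 to 9.39%), and 57.3% of 1149 counts in that of mouse 3 (54.4 to 60.1%). In spleen it took 5.26% of 913 counts (3.99 to 6.90%) and 3.57% of 1091 counts (2.63 to 4.85%). These intervals cover counting error only, since reads without molecular identifiers are not independent molecules. The share of Slc7a6 was 62.4% and 31.2% in the omental libraries and 74.6% and 77.2% in the spleen libraries.

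**Figure D3:**
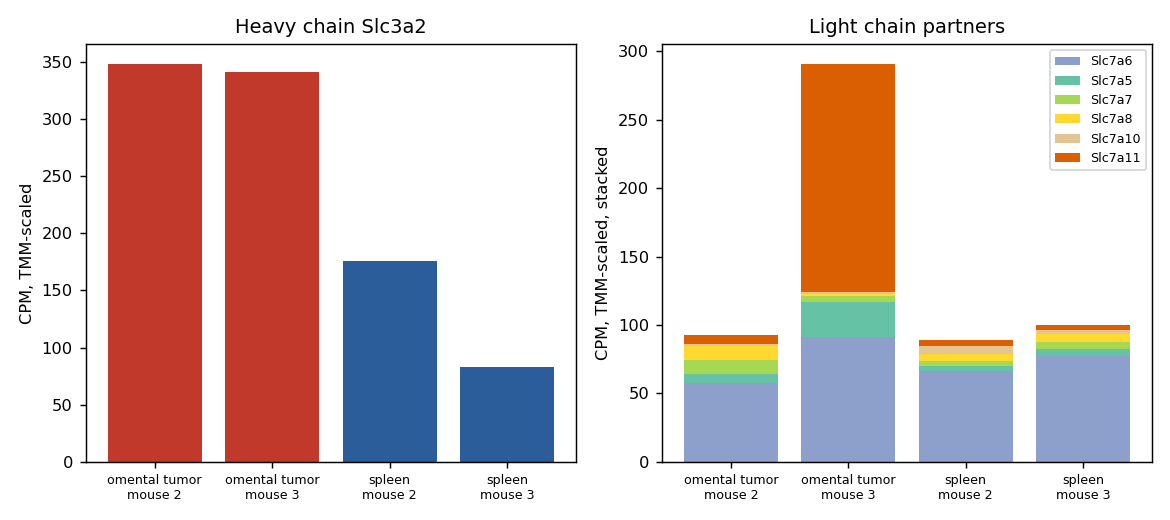
Left, TMM-scaled CPM of the heavy chain Slc3a2 in each library. Right, stacked CPM of its 6 light chain partners: Slc3a2 was at 349 and 341 CPM in omental tumor against 175 and 82.7 CPM in spleen, and Slc7a11 (orange) made up most of the stack in 1 library, the omental tumor of mouse 3.

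Among the cationic amino acid carriers, Slc7a1 is the main arginine and lysine transporter of lymphocytes. It stood at 68.8 and 138 CPM in omental tumor and 38.6 and 57.7 CPM in spleen. The groups did not overlap, and the log2 fold change of 1.10 (SE 0.78) did not pass (adjusted p = 0.723). Slc7a14, a lysosomal member of this branch, was at 180 and 138 CPM against 129 and 42.6 CPM, also without overlap and without a call (log2 fold change 0.88, adjusted p = 0.788), and has an annotated antisense transcript, Gm15496. Slc7a2 and Slc7a3, also arginine carriers, stayed at or below 14.8 CPM with overlapping groups. Slc7a4, an orphan relative, was below spleen in both omental libraries, at 0.525 and 0.760 CPM against 3.62 and 2.47 CPM, with values near the level of 3 counts and no call (adjusted p = 0.696). Slc7a4 overlaps the protein-coding gene P2rx6 on the opposite strand.

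In the Slc1 family, Slc1a5 (ASCT2) exchanges glutamine and other neutral amino acids. It stood at 23.1 and 80.0 CPM in omental tumor and 98.0 and 34.3 CPM in spleen. The 2 mice went in opposite directions, and the log2 fold change was -0.36 (adjusted p = 0.906). Slc1a4 (ASCT1), an exchanger of alanine, serine and cysteine, was at 15.4 and 5.32 CPM against 6.56 and 0.0915 CPM, with a log2 fold change of 1.64 and no call (adjusted p = 0.671). The glutamate carriers Slc1a1, Slc1a2, Slc1a3 and Slc1a7, best known from brain, had positive log2 fold changes of 0.16 to 1.48. None was called. Slc1a2 was at 21.5 and 6.08 CPM against 11.5 and 3.02 CPM, and Slc1a1 was at 0 in the omental library of mouse 3, where a count of 0 allows a level of up to 0.760 CPM.

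The Slc38 family holds the sodium-coupled carriers of glutamine and other small neutral amino acids. The family summed to 949 and 344 CPM in omental tumor and to 687 and 903 CPM in spleen. Of its 10 tested members, 6 had positive and 4 negative log2 fold changes, and none was called. Slc38a2 (SNAT2), whose expression cells raise when amino acids are scarce, stood at 422 and 128 CPM against 269 and 312 CPM. The 2 omental libraries lay on either side of the spleen libraries, with a log2 fold change of -0.08. Slc38a1 (SNAT1) was at 202 and 134 CPM against 149 and 170 CPM, with a log2 fold change of 0.07, also with overlap. Slc38a10 was at 236 and 46.3 CPM against 189 and 338 CPM (log2 fold change -0.90, adjusted p = 0.791).

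Slc38a7 and Slc38a9 encode lysosomal proteins, a glutamine exporter and an arginine sensor that signals to mTORC1. Slc38a7 was lower in both omental libraries, at 10.9 and 5.06 CPM against 19.2 and 26.3 CPM, a log2 fold change of -1.50 that did not pass (adjusted p = 0.620). Slc38a9 was at 42.3 and 12.9 CPM against 38.3 and 43.5 CPM, with overlap. Of the low members, Slc38a4 was at 4.20 and 1.52 CPM against 0.685 and 0.0915 CPM and Slc38a8 at 1.84 and 1.52 CPM against 0.294 and 0.458 CPM, both without overlap and without a call. Slc38a5, Slc38a6 and Slc38a11 had log2 fold changes of 1.30, 0.20 and 0.74 with overlapping groups.

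The proton-coupled Slc36 carriers move small neutral amino acids out of lysosomes or across the plasma membrane. Slc36a4 overlapped, at 14.2 and 6.33 CPM against 13.9 and 11.6 CPM. Slc36a1 was slightly lower in both omental libraries, at 4.20 and 2.53 CPM against 4.60 and 6.41 CPM, and was not called (adjusted p = 0.877). Slc36a2 and Slc36a3 stayed under 5 CPM with overlapping groups. In the Slc43 family, Slc43a2 (LAT4), an exporter of branched-chain and other large neutral amino acids, stood at 79.2 and 35.7 CPM in omental tumor and 118 and 161 CPM in spleen. It was lower in both omental libraries, with a log2 fold change of -1.28 (SE 0.79), which did not pass (adjusted p = 0.664). Slc43a1 (LAT3), of like function, was also lower in both, at 8.40 and 2.28 CPM against 11.2 and 9.52 CPM (adjusted p = 0.816). Slc43a3 overlapped, at 41.0 and 42.8 CPM against 23.0 and 53.7 CPM.

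Slc6a13 (chr6:121300227-121337733, plus strand, GRCm38), known as GAT2, takes up GABA and taurine and is best known from liver, kidney and the brain's surface membranes. It stood at 83.1 and 101 CPM in omental tumor and 10.2 and 13.5 CPM in spleen. Both omental libraries were far above both spleen libraries, and the 2 mice gave almost the same ratio, 3.00 and 2.88 on the log2 scale. The means were 91.8 ± 12.3 and 11.8 ± 2.31 CPM (SD, n = 2 each), with a log2 fold change of 2.96, an SE of 0.81 and an adjusted p of 0.0253. With the mouse as a block the adjusted p was 0.0352. The direction held without each library, with log2 fold changes of 2.71 to 3.46. Leaving out an omental library kept the call for mouse 2 (adjusted p = 0.00913) and lost it for mouse 3 (adjusted p = 0.126). It was also lost when either spleen library was left out, with an adjusted p of 0.580 (mouse 2) and 0.477 (mouse 3). Scaling by library totals (adjusted p = 0.108), a minimum count of 50 (0.108) and no filter (0.0713) ended it as well.

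The fibroblast or mesothelial markers also summed higher in omental tumor, at 183 and 20.0 CPM in the 2 omental libraries. All 10 were highest in the omental library of mouse 2, by unlike margins. Col3a1 stood at 91.2 and 2.03 CPM in those libraries, Dcn at 37.3 and 1.01 CPM, Col1a2 at 24.2 and 2.53 CPM and Pdgfra at 10.5 and 3.29 CPM. The margin was small for Col1a1 (5.78 and 5.06 CPM) and Krt18 (4.33 and 4.30 CPM). Of the 6 of these markers tested, 1 was called higher, and Lum was at 0 in the omental and spleen libraries of mouse 3. The handling genes summed higher in omental tumor as well, with 2 of 10 called, against 1.32% of all genes tested. Their log2 fold changes went both ways, with 8 positive and 2 negative (Jun at -0.66 and Ier2 at -0.05). The part of either in the Slc6a13 value was not tested. Slc6a12, the betaine and GABA carrier that is a close relative of Slc6a13, stayed low at 4.07 and 1.01 CPM against 1.27 and 0.0915 CPM, with overlap.

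The other members of the Slc6 family were low apart from Slc6a6 and Slc6a18. Slc6a6, the taurine transporter, was at 58.3 and 60.5 CPM against 93.9 and 31.4 CPM, with a log2 fold change of -0.08 and the omental libraries between the spleen ones. Slc6a18, a neutral amino acid carrier of the kidney, was at 49.2 and 27.8 CPM against 27.8 and 11.0 CPM (log2 fold change 0.99, adjusted p = 0.763), so the lower omental and the higher spleen library were about level. Slc6a2, the noradrenaline transporter, stood at 9.45 and 3.54 CPM in omental tumor and 1.27 and 0.183 CPM in spleen, where it rested on 13 and 2 counts. It was higher in the omental library of both mice. The log2 fold change was 3.15 (SE 1.28), with an adjusted p of 0.344. With the mouse as a block, a fit that called 308 genes (1.89%) in all, the adjusted p of Slc6a2 was 0.0107 and it was called.

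Of the 17 Slc6 members tested, 16 had positive log2 fold changes, with a median of 1.52. Most of these genes were low, and 78.5% of all genes tested under 10 CPM were positive too. All 17 were positive with RLE, upper-quartile or total-count scaling and with the mouse as a block, and 7 of the 14 tested were positive without the omental library of mouse 2. For 8 of 17 both omental libraries lay above both spleen libraries, and for none below, against 16.4% and 25.4% of all genes tested, or 25.3% and 8.33% of those under 10 CPM. Besides those named, they included Slc6a7, Slc6a8, Slc6a11 and Slc6a17, carriers of proline, creatine, GABA and neutral amino acids. These 4 were under 5 CPM in every library and none was called. The glycine carriers Slc6a5 and Slc6a9, the dopamine and serotonin transporters Slc6a3 and Slc6a4, and the neutral amino acid carriers Slc6a14, Slc6a15 and Slc6a19 had overlapping groups and log2 fold changes of 0.25 to 1.52.

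The 39 transporters with a mean under 10 CPM had a summed level of 200 and 74.4 CPM in omental tumor and 122 and 55.0 CPM in spleen, and that of mouse 2 was higher than that of mouse 3 in both tissues. The omental library of mouse 2 was the highest of the 4 for 32 of the 39, and the spleen library of mouse 3 the lowest for 26. Of all 7254 genes tested at that level, these libraries were highest for 4327 and lowest for 4542. The share of file entries that fell outside annotated genes was 48.9% and 27.3% for omental tumor, while it was 44.2% and 24.8% for spleen, the same order of libraries as the sum. All genes tested with a mean under 10 CPM summed to 38357, 24997, 28437 and 16303 CPM. The part of these entries in the low transporters' values was not tested.

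**Figure D4:**
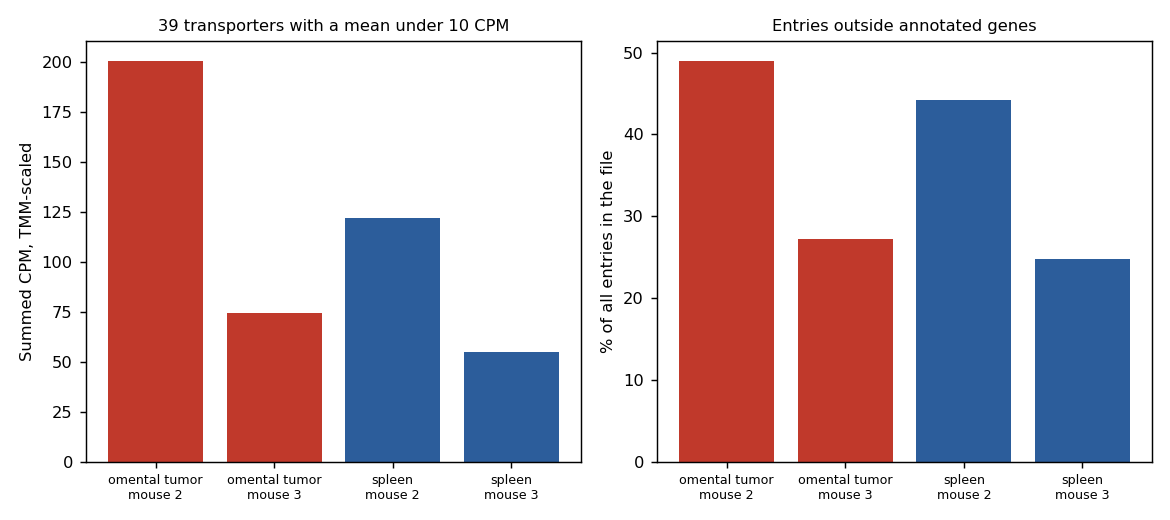
Left, summed TMM-scaled CPM of the 39 transporters with a mean under 10 CPM in each library. Right, percent of all entries of each file that fell outside annotated genes: both are highest in the omental library of mouse 2 (200 CPM and 48.9%) and lowest in the spleen library of mouse 3 (55.0 CPM and 24.8%).

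Other genes of amino acid supply, response and use were read from 4 lists. Of 16 further transporters of amino acids and peptides tested, none was called, and 8 log2 fold changes were positive and 8 negative. Slc25a44, Slc25a22 and Slc25a29 were lower in both omental libraries, with log2 fold changes of -1.79, -1.45 and -2.21. Slc25a44 stood at 27.2 and 6.84 CPM against 49.1 and 69.8 CPM (adjusted p = 0.409). Slc15a3, a lysosomal carrier of histidine and dipeptides, stood at 28.5 and 54.9 CPM against 3.13 and 9.97 CPM (log2 fold change 2.66, adjusted p = 0.0852), and was called with the mouse as a block (adjusted p = 0.0464), with upper-quartile factors (0.0349) and without the mouse 2 omental library (0.0124). Of 13 genes of the amino acid response tested, none was called and 6 were positive, while upper-quartile scaling made all 13 positive with 1 called. Asns, the asparagine synthetase that ATF4 induces, was at 260 and 397 CPM against 46.8 and 46.9 CPM, without overlap (log2 fold change 2.81, adjusted p = 0.0753; 0.0850 with the block). It was called with upper-quartile factors (adjusted p = 0.0243), DESeq2 (0.00533), limma-voom (0.0213), legacy = FALSE (0.0405) and without the mouse 2 omental library (0.0174). Atf4 itself was at 172 and 134 CPM against 102 and 150 CPM, with overlap.

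Of 31 genes that sense amino acids at the lysosome and signal to mTORC1, none was called. Their log2 fold changes were negative for 23, with a median of -0.40 beside -0.42 for all genes of at least 10 CPM, and with upper-quartile scaling the median was 0.08. Fnip2, which acts on the Rag GTPases, had the highest log2 fold change of this list at 2.27 (adjusted p = 0.232), and Rheb, the GTPase that switches on mTORC1, stood at 93.6 and 262 CPM against 66.2 and 20.4 CPM (adjusted p = 0.327). Wdr24, of the GATOR2 complex, was at 36.6 and 9.37 CPM against 77.1 and 98.7 CPM (adjusted p = 0.339).

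Of 24 enzymes of amino acid metabolism tested, 4 rose and none fell, and 17 log2 fold changes were positive. Over all genes tested, 1.09% rose and 53.6% were positive. Arg2, the mitochondrial arginase, stood at 3.54 and 62.5 CPM in omental tumor and 1.08 and 0.366 CPM in spleen (adjusted p = 2.58e-05). Odc1, the first enzyme of polyamine synthesis, stood at 95.3 and 773 CPM against 15.4 and 23.7 CPM (adjusted p = 0.000527), and Cbs, which makes cystathionine, at 1.97 and 16.7 CPM against 0.294 and 0 CPM (adjusted p = 0.00592). As with Slc7a11, these 3 were highest in the omental library of mouse 3. Without it their adjusted p rose to 0.936, 0.541 and 0.936. Arg1, the cytosolic arginase, was instead highest in the omental library of mouse 2, at 40.6 and 15.9 CPM against 1.96 and 2.75 CPM (adjusted p = 0.0123). Leaving out either omental library gave 0.136 (mouse 2) and 0.0181 (mouse 3). Without the spleen library of mouse 2 none of the 4 was called, and without that of mouse 3 only Arg2 was (adjusted p = 0.0366). None of the 4 was called with scaling by library totals. With limma-voom Arg2 (adjusted p = 0.117) and Cbs (0.220) lost their calls, and at a minimum count of 50 so did Arg1 (0.114) and Odc1 (0.125), while Arg2 and Cbs were not tested. Arginase is also abundant in neutrophils and macrophages, whose markers are given above, and their part in these values was not tested.

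**Figure D5:**
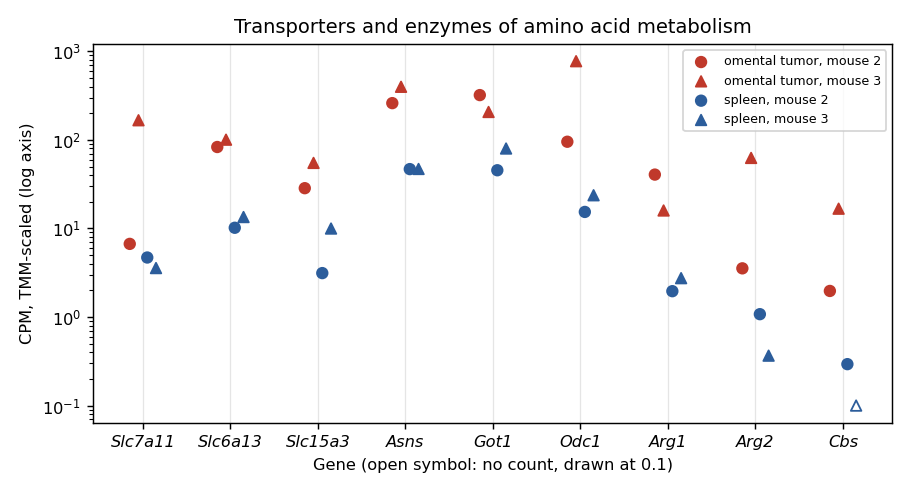
TMM-scaled CPM (log axis) of Slc7a11, Slc6a13, Slc15a3 and 6 enzymes of amino acid metabolism, 1 symbol per library; an open symbol marks a count of 0. Slc6a13 is at 83.1 and 101 CPM in the 2 omental libraries (red), while Slc7a11, Odc1, Arg2 and Cbs lie much higher in that of mouse 3 (triangle) than in that of mouse 2 (circle).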

How the data were processed

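The authors deposited raw read counts for each gene symbol, in 1 file for each of the 4 libraries. SMART-seq v4 made the cDNA and Nextera XT the libraries, per the labels' protocols, and neither marks strand. The submitters' processing notes name TopHat2, HTSeq, SAMtools and Trim Galore, and build mm10. No version, annotation or strand setting is given in the sources used here. The 5 HTSeq summary rows, which name no gene, were left out: their share of all entries was 82.9% and 77.8% for omental tumor, and for spleen 75.1% and 54.0%.

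The members and lists were chosen with earlier results of these data known. In R 4.3.3, edgeR 4.0.16 kept 16322 of 24421 genes (filterByExpr, minimum count 10), scaled libraries by TMM factors of 1.15, 1.05, 1.03 and 0.804, and compared the tissues with glmQLFit and glmQLFTest, with Benjamini-Hochberg adjustment over all genes tested. Every adjusted p is from this test unless named otherwise. Genes with an adjusted p under 0.05 are said to be called. The SE is the log2 fold change over the square root of F. The prior degrees of freedom were infinite, so SE and p do not reflect how far a single gene varied between the mice. Log ratios within a mouse used a prior count of 2. The mice are the same in both tissues per the labels, and deviations from the tissue means of same-numbered libraries correlated at 0.234 over 16322 genes. The fit without the mouse as a block is the main one. Scaling by gene totals alone, as the rule of the selection words it, was an alternative, as were RLE and upper-quartile factors, 2 other filters, DESeq2 1.42.0, limma-voom (limma 3.58.1), a robust fit, the block and leaving out each library. Exon lengths are the union of exons in GENCODE M21 basic, and promoters are RefSeq's for GRCm38.p6. Genes given with per-library values were those with the largest group means, an unadjusted p under 0.05, or the same direction in both mice and an absolute log2 fold change over 1. Others were named by role after their values were seen. The values of 1 member are not reported here, though it is part of the counts.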

Additional observations from a re-analysis of the deposited data

How the results depend on the processing

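All genes called numbered 215, against 26 with library totals alone, 3 with a minimum count of 50 and 363 with DESeq2, which gave no adjusted p for 8932 genes. Leaving out 1 library gave 44 to 606. The transporters called numbered 2, against 0 with totals alone or a minimum count of 50, 1 with no filter and 1 with limma-voom. Leaving out 1 library gave 0 to 2. With the replicate block 308 genes and 2 transporters were called, Slc6a13 and Slc6a2. The median log2 fold change of the transporters was 1.26 with upper-quartile factors, 1.08 with totals, 0.42 with a minimum count of 50 and 1.03 with limma-voom, and -0.14 to 1.74 when 1 library was left out. The log2 ratio of summed levels was 0.28, and 0.55 with totals. Over 34 transporters and 14 settings, 413 values kept direction and side of the threshold, 13 lost a call, 1 gained one and 26 changed sign. A transporter not tested under a setting, as happened at a minimum count of 50, gave no value there. Sign changes were mostly in genes with log2 fold changes near 0. Slc6a6 was 0.13 with RLE, 0.40 with upper quartile, 0.11 with totals, 0.12 with a minimum count of 50, 0.0029 with DESeq2, 0.13 with limma-voom and 0.13 with the replicate block. Slc1a5 was 0.19 and Slc38a2 0.37 with upper quartile, and Slc38a2 was 0.24 with totals and 0.19 with a minimum count of 50. With no filter Slc38a1 was -0.079 and Slc7a6 -0.10, and with DESeq2 Slc38a1 was -0.021. Leaving out 1 library gave ranges that cross 0 for these and 3 lower genes: Slc6a6 -0.40 to 0.86, Slc1a5 -1.60 to 0.53, Slc38a2 -1.19 to 0.45, Slc38a1 -0.27 to 0.37, Slc7a6 -0.40 to 0.48, Slc36a2 -0.43 to 4.68, Slc6a3 -0.14 to 3.67 and Slc6a4 -2.21 to 4.53. The cause was not tested. A group of 1 library is assumed to vary like the other. A fit with legacy = FALSE, chosen after seeing the data, called 233 genes and the same 2 transporters. Members under 1 CPM rest on few counts.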

Other observations

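Symbols that the rule leaves out include 2 further proline carriers and 3 transcripts named as opposite strand to a transporter gene. Slc36a1os stood at 71.9 and 19.5 CPM in omental tumor and 39.4 and 6.41 CPM in spleen. Slc7a6os stood at 18.0 and 27.1 CPM against 29.3 and 6.86 CPM. Slc6a20b was at 6.56 and 1.77 CPM against 3.52 and 0.366 CPM, and Slc6a20a and Slc6a19os were at 2.36 CPM or less in every library. None was called. As the libraries do not mark strand, reads of an opposite-strand transcript and of its partner cannot be told apart where they overlap. In GENCODE M21 Slc6a19 overlaps Slc6a19os, while no annotated gene overlaps Slc36a1 or Slc7a6.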
